A study of Saccharomyces cerevisiae with 11 samples.

Results

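The genes described are 8 yeast genes on Affymetrix expression arrays of *rna14-1*, *rna15-1* and wild-type cells. *AAD6*, *GRE2*, *YGR035C* and *RSB1* were taken because both mutants were called different from wild type for them, and in opposite directions. *AAD3*, *AAD4*, *AAD10* and *AAD14* were added as further genes of the *AAD* family, for comparison. Together they are 8 of the 5449 genes tested and are read by 11 of 5498 probe sets, of which 3 carry the suffix _s_at or _x_at, with which the maker marks a sequence shared with other transcripts. The genes are called reductases as a group, but only *AAD6* and *GRE2* among the first 4 belong to such enzyme families, and *RSB1* and *YGR035C* do not.

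There were 3 arrays of *rna14-1*, 3 of *rna15-1* and 5 of wild type, which the labels describe as biological replicates. The labels name the wild type W303-1B and the mutant strains *rna14-1* W and *rna15-1* W, the methods place all of them in the W303 background, and the labels give every genotype as MATa with the markers *ade2-1*, *trp1-1*, *ura3-1* and *his3-11,15* with a *leu2* mutation. The *rna14-1* cells carry the *rna14-1* allele in addition, and the *rna15-1* cells carry *rna15-1*. Each mutant is represented by a single strain with a single allele. Cells were in mid-log phase in rich liquid medium at 30°C, and total RNA was hybridised. The values are log2 intensities after robust multiarray averaging, so a difference of 1 is a 2-fold change, and the level of one probe set cannot be set against that of another. In RNA of whole cultures, fewer cells expressing a gene and less RNA per cell cannot be told apart.

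Rna14 and Rna15 are subunits of cleavage factor IA, which acts with other factors in the cleavage and polyadenylation of the 3′ ends of messenger RNAs. The *AAD* genes code for putative aryl-alcohol dehydrogenases of the aldo-keto reductase superfamily, enzymes that use NADPH to turn aldehydes and ketones into alcohols. They are a family of closely similar copies, most of which lie near chromosome ends. *GRE2* codes for a stress-induced NADPH-dependent reductase of methylglyoxal and 3-methylbutanal, and *RSB1* for a membrane protein of the RTA1-like family that is needed for the release of sphingoid bases from the cell. *YGR035C* codes for a small protein of unknown function. *RSB1* is known as a target of Pdr1, the master regulator of pleiotropic drug resistance, the network of pumps and lipid genes that protects yeast from toxic compounds.

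Between 98.7% and 99.7% of genes were above background on each array, where background, the 95th percentile of probe sets for other genomes, lay between 4.19 and 4.44. Array 3 of *rna15-1* stood apart, with correlations of 0.965 and 0.964 to the other *rna15-1* arrays, which had a correlation of 0.997 between them. It lay nearer to *rna14-1* (0.939 to 0.946, against 0.901 to 0.918 for *rna15-1* arrays 1 and 2) and farther from wild type (0.843 to 0.849, against 0.893 to 0.905). The mating type markers went against the label MATa, and W303-1B is a name in common use for a MATα strain. All 4 α-specific genes examined were high on all arrays, with a summed log2 intensity of 14.3 to 14.7 in *rna14-1*, 15.7 to 15.8 in *rna15-1* and 14.6 to 14.7 in wild type. All 7 **a**-specific genes rose in both mutants, with summed levels of 13.0 to 13.2 in *rna14-1*, 12.4 to 13.6 in *rna15-1* and 9.84 to 10.5 in wild type. None of the defining markers was below background on any array, and the part of this difference between mutants and wild type in the results below was not tested.

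*AAD6* had the largest difference between the mutants among the 8 genes, higher than wild type in *rna14-1* and near background in *rna15-1*. Its log2 intensity was 9.95, 9.64 and 9.99 on the *rna14-1* arrays, 4.27, 4.13 and 4.81 on the *rna15-1* arrays and 7.93, 7.93, 7.88, 8.06 and 7.81 on the wild-type arrays. Every *rna14-1* array was above, and every *rna15-1* array below, all wild-type arrays. Of all genes, 37.7% lay wholly above and 36.1% wholly below wild type in *rna14-1*, and 32.6% above and 29.1% below it in *rna15-1*. Between the mutants, 29.5% of all genes were wholly higher and 29.1% wholly lower in *rna15-1* than in *rna14-1*. The means were 9.86 ± 0.19 in *rna14-1* and 4.40 ± 0.36 in *rna15-1* (SD, n = 3 each) against 7.92 ± 0.09 in wild type (SD, n = 5). In *rna14-1* this was a difference of 1.94 ± 0.14 (SE), or 3.83-fold higher. In *rna15-1* the difference was −3.52 ± 0.14 (SE), but only 1 of the 3 arrays was above background, so that with each array set to no less than its background the gene was at least 10.8-fold lower than in wild type and at least 41.5-fold lower than in *rna14-1*. Since both comparisons chose this gene, these values are a description and carry no test, as do those of the next 3 genes. The RefSeq table lists *AAD6* as a pseudogene, and its entry takes in the neighbouring reading frame also known as *AAD16*.

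*GRE2*, *YGR035C* and *RSB1* had the opposite pattern, lower in *rna14-1* and higher in *rna15-1*. *GRE2* gave 8.88, 9.15 and 9.05 in *rna14-1*, 11.43, 11.46 and 11.19 in *rna15-1*, against 10.30, 10.13, 10.06, 9.80 and 10.26 in wild type. Its difference from wild type was −1.08 ± 0.12 in *rna14-1* and 1.25 ± 0.12 in *rna15-1* (SE), the smallest pair among the 4. All 3 strains occupied separate ranges.

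*YGR035C* was at 8.73, 8.41 and 8.60 in *rna14-1*, at 11.60, 11.93 and 11.61 in *rna15-1* and at 9.81, 9.83, 10.03, 9.51 and 9.81 in wild type. These are differences of −1.22 ± 0.12 in *rna14-1* and 1.92 ± 0.12 in *rna15-1* (SE), a 3.78-fold higher intensity in *rna15-1*. Again no array of one strain fell within the range of another.

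*RSB1*, the sphingoid base gene, had 8.07, 7.71 and 7.68 in *rna14-1*, 11.15, 11.37 and 11.27 in *rna15-1*, against 9.92, 9.79, 9.61, 9.03 and 9.56 in wild type. The ranges did not overlap, although wild type was spread more for it than for *AAD6*, *GRE2* or *YGR035C*, with an SD of 0.34 (n = 5). Its differences from wild type were −1.76 ± 0.18 in *rna14-1* and 1.68 ± 0.18 in *rna15-1* (SE), nearly equal in size. Wild-type arrays 3 to 5 averaged 0.46 less than arrays 1 and 2. Against arrays 1 and 2 alone, the differences were −2.04 in *rna14-1* and 1.41 in *rna15-1*. In *rna15-1* against *rna14-1*, *RSB1* was 10.9-fold, *YGR035C* 8.79-fold and *GRE2* 5.05-fold higher.

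**Figure D1:**
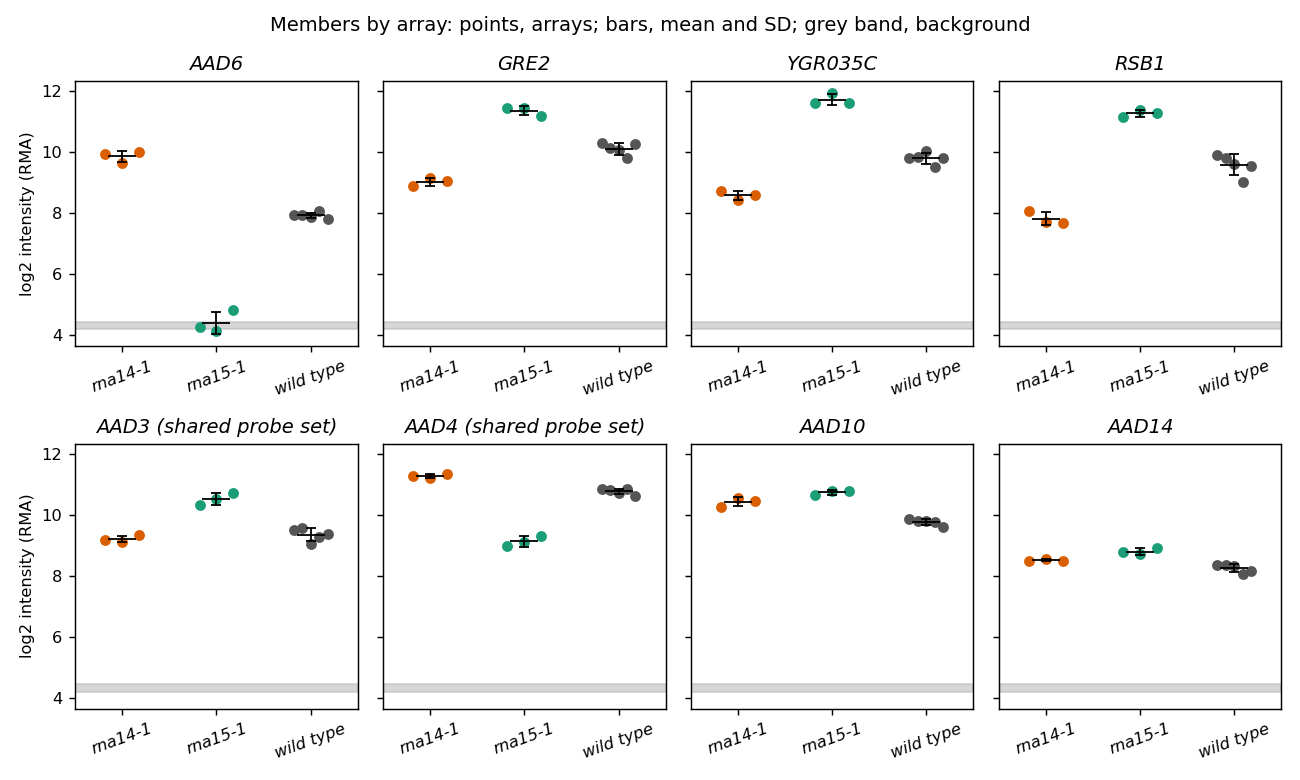
Log2 intensity (vertical axis) of the 8 genes in *rna14-1*, *rna15-1* and wild type (horizontal axis). Points are arrays, bars are the mean and SD, and the grey band spans the backgrounds of the 11 arrays, 4.19 to 4.44. *AAD6* in *rna15-1*, at 4.13 to 4.81, is the only gene that reaches the band, and for *GRE2*, *YGR035C* and *RSB1* the wild-type points lie between those of *rna14-1* and *rna15-1*.

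A gene was called where it differed by over 2-fold with an adjusted p under 0.01 and had a mean log2 intensity over 7 across all arrays and a B-statistic over 2, B being limma's log odds of a change. At these thresholds the 4 genes were 0.0734% of the 5449 tested, while 405 genes (7.43%) were called in the same direction in both mutants. With the adjusted p alone, 90 genes (1.65%) had opposite directions, 42 of them higher in *rna14-1* and lower in *rna15-1*, and 48 the reverse. Both comparisons use the same wild-type arrays. *GRE2*, with 1.08 as the smaller of its absolute differences, was nearest to the threshold from within. Outside it were 6 genes with fitted differences over 2-fold in opposite directions that missed another threshold. First by the smaller of both differences were *FLO1*, a flocculin gene (2.75 in *rna14-1* and −1.97 in *rna15-1*, average intensity 5.40), and *PHO89*, a sodium-phosphate cotransporter gene (2.78 in *rna14-1* and −1.81 in *rna15-1*, with B of 0.47 in *rna14-1* and −3.00 in *rna15-1*). For *FLO1* no *rna15-1* array was above background (3.00 to 3.60). Its −1.97 is therefore not a measured size, and a fall of over 2-fold there is not established. Next came *HPF1*, a cell wall mannoprotein gene (1.96 in *rna14-1* and −1.12 in *rna15-1*), and *FDH1*, a formate dehydrogenase gene (1.09 in *rna14-1* and −1.74 in *rna15-1*), both with B under 2 in each mutant, and *HPF1* also missed the adjusted p in *rna15-1*. *HUG1*, a gene of the DNA damage response (1.05 in *rna14-1* and −1.58 in *rna15-1*), had a B of −0.27 in *rna14-1*, and *BTN2*, a gene of protein sorting (1.22 in *rna14-1* and −1.03 in *rna15-1*), had B under 2 in each mutant and missed the adjusted p in *rna15-1*.

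**Figure D2:**
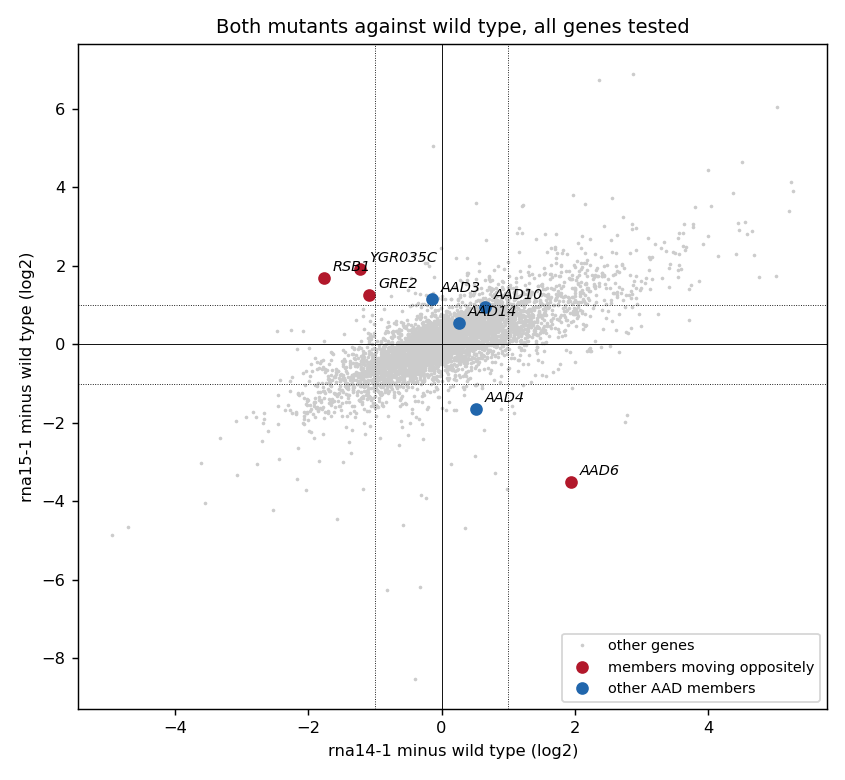
Log2 difference of *rna15-1* from wild type (vertical axis) against that of *rna14-1* from wild type (horizontal axis) for all 5449 genes, with dotted lines at a 2-fold change. *AAD6* lies at 1.94 and −3.52, and *GRE2*, *YGR035C* and *RSB1* lie in the opposite corner, while *AAD10* and *AAD14* have positive differences in both mutants. The axes share the wild-type arrays.

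The other *AAD* genes did not follow *AAD6*, except for 1 probe set. *AAD10*, a putative aryl-alcohol dehydrogenase, gave 10.26, 10.55 and 10.45 in *rna14-1*, 10.65, 10.77 and 10.78 in *rna15-1*, against 9.88, 9.79, 9.79, 9.78 and 9.61 in wild type. It rose in both mutants, by 0.65 ± 0.08 in *rna14-1* (SE, limma adjusted p = 3.67e-05) and by 0.96 ± 0.08 in *rna15-1* (SE, limma adjusted p = 3.10e-06). In *rna14-1*, 32.8% of all genes rose and 29.5% fell, and in *rna15-1* these shares were 28.2% and 24.7%. The difference between the mutants, 0.31 ± 0.09 (SE), did not pass (limma adjusted p = 0.0171).

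*AAD14*, another family member, was at 8.49, 8.55 and 8.49 in *rna14-1*, 8.76, 8.71 and 8.91 in *rna15-1*, against 8.34, 8.35, 8.32, 8.05 and 8.17 in wild type. It rose in *rna15-1* by 0.55 ± 0.08 (SE, limma adjusted p = 1.97e-04). In *rna14-1* all arrays were above the wild-type range, yet the difference of 0.26 ± 0.08 (SE) missed the threshold (limma adjusted p = 0.0158), and it was 0.04 after quantile normalisation. As in *AAD10*, no mutant array reached down to the wild-type range.

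*AAD4* has a shared and an unshared probe set, and they disagreed. The shared _s_at probe set, the brighter of the pair, is annotated to *AAD16* as well as to *AAD4*. It read 11.28, 11.21 and 11.34 in *rna14-1*, 8.97, 9.09 and 9.31 in *rna15-1*, against 10.84, 10.80, 10.72, 10.84 and 10.63 in wild type, without overlap. It rose by 0.51 ± 0.09 in *rna14-1* (SE, limma adjusted p = 2.93e-04) and fell by 1.64 ± 0.09 in *rna15-1* (SE, limma adjusted p = 1.18e-07). The shared probe set differed by −2.15 ± 0.10 between *rna15-1* and *rna14-1* (SE, limma adjusted p = 9.86e-08). This is the direction of *AAD6* in each mutant, and over the 11 arrays the correlation of the shared probe set with that of *AAD6* was 0.987. Since the entry of *AAD6* takes in *AAD16*, the shared probe set may also read *AAD6*, which was chosen by its direction. Its p-values may repeat that choice and are no separate test of *AAD4*.

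The probe set of *AAD4* without that suffix gave 7.08, 7.40 and 7.67 in *rna14-1*, 6.71, 7.06 and 7.42 in *rna15-1*, against 7.52, 6.66, 6.94, 6.69 and 6.56 in wild type. Ranges of all 3 strains overlapped. Neither the *rna14-1* difference of 0.51 ± 0.23 (SE, limma adjusted p = 0.0699) nor the *rna15-1* difference of 0.19 ± 0.23 (SE, limma adjusted p = 0.488) passed the threshold, and its correlation with *AAD6* was 0.24. Averaging both probe sets gave −0.73 for *AAD4* in *rna15-1*. The *rna15-1* call of *AAD4* thus holds for the shared probe set only, and which of the transcripts it binds was not measured.

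*AAD3* has 3 probe sets. Its brightest, marked _s_at and annotated also to *AAD15*, gave 9.16, 9.12 and 9.32 in *rna14-1*, 10.31, 10.52 and 10.70 in *rna15-1*, against 9.51, 9.56, 9.04, 9.26 and 9.37 in wild type. The *rna14-1* arrays lay within the wild-type range, and the *rna15-1* arrays above it. It rose by 1.16 ± 0.13 in *rna15-1* (SE, limma adjusted p = 1.68e-05), against −0.15 in *rna14-1* (limma adjusted p = 0.305). The _x_at probe set rose in *rna15-1* by 0.63 ± 0.14 (SE, limma adjusted p = 0.00230) and the one without a suffix by 0.71 ± 0.17 (SE, limma adjusted p = 0.00388). In *rna14-1* these gave 0.10 (limma adjusted p = 0.549) and 0.29 (limma adjusted p = 0.153). The 3 probe sets of *AAD3* therefore rose in *rna15-1* and did not pass the test in *rna14-1*. Between *rna15-1* and *rna14-1* the _s_at probe set differed by 1.31 ± 0.14 (SE, limma adjusted p = 4.84e-05), whereas the _x_at probe set (0.54, limma adjusted p = 0.0166) and the one without a suffix (0.42, limma adjusted p = 0.0910) did not pass.

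**Figure D3:**
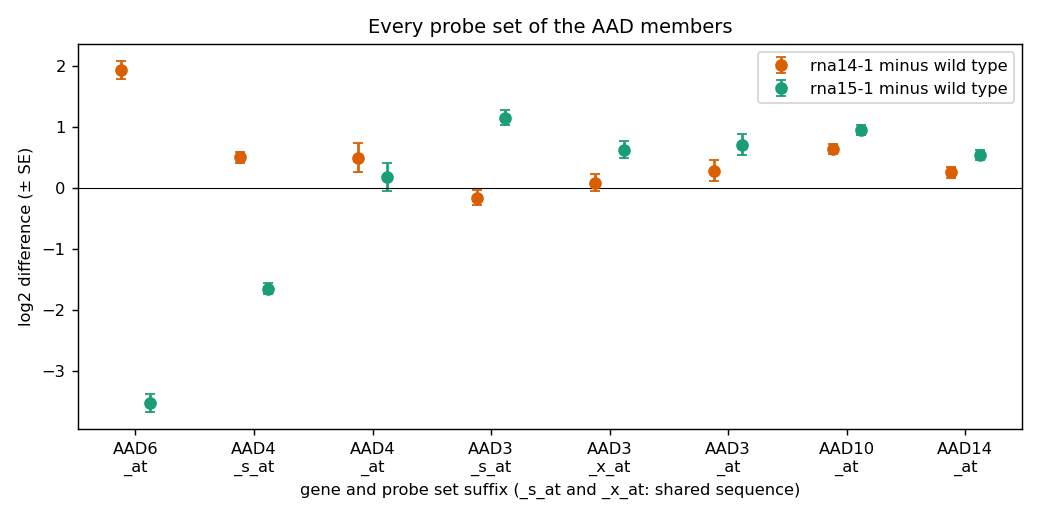
Log2 difference from wild type (vertical axis, error bars ± SE) of every probe set of the 5 *AAD* genes, for *rna14-1* (left of each pair) and *rna15-1* (right of each pair). The shared *AAD4* probe set is at −1.64 in *rna15-1*, and the unshared one at 0.19. All probe sets of *AAD3*, *AAD10* and *AAD14* are above 0 in *rna15-1*.

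*YPL088W*, a putative aryl-alcohol dehydrogenase outside the named family, is the only one of 3 *AAD*-like genes listed that has a probe set under its own name. It averaged 11.84 ± 0.03 in *rna14-1* and 13.12 ± 0.11 in *rna15-1* (SD, n = 3 each) and 11.54 ± 0.10 in wild type (SD, n = 5). It rose by 0.31 ± 0.07 in *rna14-1* (SE, limma adjusted p = 0.00326) and by 1.59 ± 0.07 in *rna15-1* (SE, limma adjusted p = 5.67e-08). The 2 mutants differed by 1.28 ± 0.08 (SE, limma adjusted p = 1.50e-06).

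The place of the genes on the chromosomes was read from the order of genes in the RefSeq table. *AAD6* is 10 genes from the nearer end of chromosome VI, and *AAD3*, *AAD4*, *AAD10* and *AAD14* are 1 to 6 genes from the ends of chromosomes III, IV, X and XIV. *GRE2* is 18 genes from an end of chromosome XV, whereas *RSB1*, 217 genes from an end of the same chromosome, and *YGR035C*, 254 genes from an end of chromosome VII, lie in the interior. Of 226 genes measured among the 10 nearest to each end, 98 (43.4%) rose and 39 (17.3%) fell in *rna14-1*, with a median difference of 0.34 against −0.01 for the other genes. In *rna15-1* 68 (30.1%) rose and 51 (22.6%) fell, with a median of 0.18 against 0.02. *AAD3*, *AAD4*, *AAD10* and *AAD14* are among these 226 genes, and *AAD6* lies just beyond them. Over chromosome VI, that of *AAD6*, the median was 0.31 in *rna14-1* and 0.16 in *rna15-1*, against −0.01 and 0.03 elsewhere. Over chromosome III, that of *AAD3*, it was −0.01 in *rna14-1* and 0.21 in *rna15-1*, against 0.00 and 0.02 elsewhere. On the chromosomes of the other members it lay between −0.06 and 0.04. The part of these shifts in the differences of the genes was not tested.

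*AAD6* was followed on chromosome VI by 3 measured genes that were also dim in *rna15-1*, a stretch singled out after its values were seen. *AGP3*, an amino acid permease gene, gave 7.97, 7.85 and 7.97 in *rna14-1*, 3.18, 3.23 and 3.40 in *rna15-1*, against 6.51, 6.39, 7.37, 7.44 and 7.03 in wild type. None of its *rna15-1* arrays was above background, and it was at least 6.24-fold lower there than in wild type. *DAK2*, a dihydroxyacetone kinase gene, read 8.38, 8.62 and 8.36 in *rna14-1*, 4.49, 4.48 and 4.12 in *rna15-1*, against 7.23, 7.65, 7.98, 7.82 and 7.56 in wild type. It was above background on 2 of the 3 *rna15-1* arrays, and was at least 9.40-fold lower there than in wild type.

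*ZNF1*, a zinc cluster transcription factor gene, was at 6.06, 6.20 and 6.25 in *rna14-1*, at 3.67, 3.90 and 4.01 in *rna15-1* and at 5.08, 4.49, 4.77, 4.98 and 4.81 in wild type, and none of its *rna15-1* arrays was above background, which makes it at least 1.44-fold lower than in wild type. Since the stretch was singled out by its *rna15-1* levels, these carry no test. These 3 genes were also higher in *rna14-1*, as *AAD6* was, by 0.98 for *AGP3*, 0.81 for *DAK2* and 1.34 for *ZNF1*, where 32.8% of all genes rose. The wild-type arrays in these differences also served to single out the stretch, so they carry no test either. Wild-type levels of *ZNF1*, from 4.49 to 5.08, were themselves near background. Genes above background on every wild-type array but not on every *rna15-1* array numbered 14 (0.257%), and the stretch holds 4 of them. It was the longest of 3 runs of such consecutive genes in *rna15-1*, with none in *rna14-1*, where only 1 gene (0.0184%) was dim in this way.

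The next measured genes on either side of the stretch were above background on all arrays. *SNZ3*, a vitamin B6 synthesis gene with a shared probe set, rose by 2.17 ± 0.18 in *rna14-1* (SE, limma adjusted p = 1.38e-06) and by 1.54 ± 0.18 in *rna15-1* (SE, limma adjusted p = 2.27e-05). *YFL051C*, beyond *ZNF1*, had means of 5.39 in *rna14-1*, 6.19 in *rna15-1* and 6.99 in wild type. The arrays measure RNA, and the DNA of this stretch in the *rna15-1* strain was not measured.

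**Figure D4:**
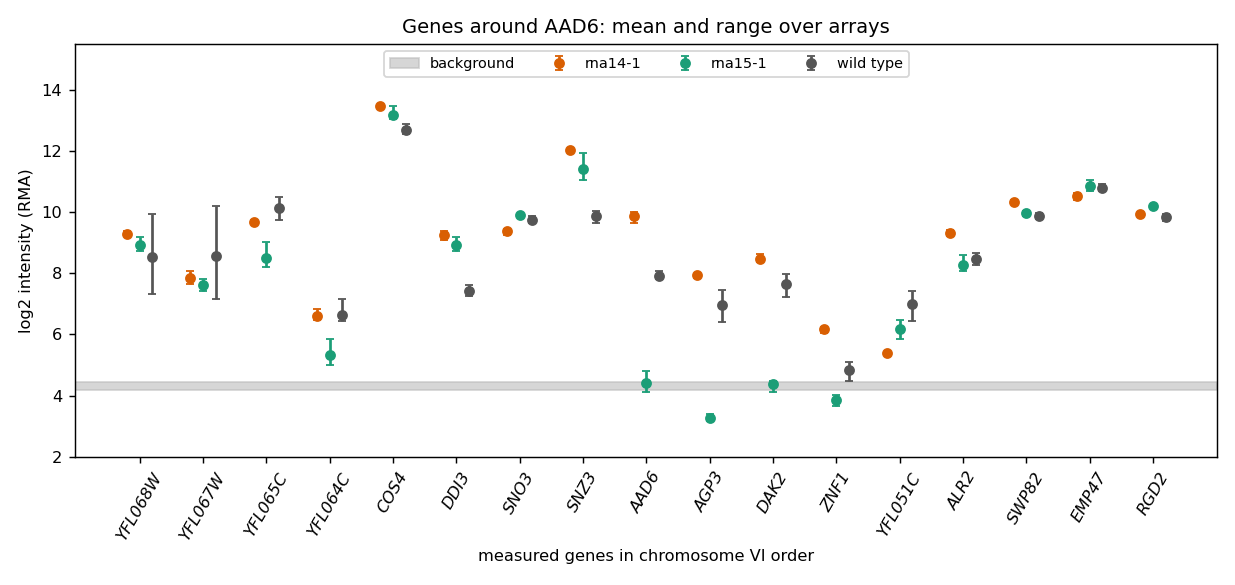
Mean log2 intensity (vertical axis, bars show the range over arrays) of *AAD6* and 16 measured genes around it in the order of chromosome VI (horizontal axis), for *rna14-1*, *rna15-1* and wild type. The grey band is the background, 4.19 to 4.44. *AAD6*, *AGP3*, *DAK2* and *ZNF1* have means within or under the band in *rna15-1* only.

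The nearest measured neighbours of *GRE2*, *YGR035C* and *RSB1* did not pass in opposite directions. Of all genes, 1.65% passed in opposite directions. Among the 16 measured genes around each, 0 did so for *GRE2* and *RSB1* and 1 for *YGR035C*. This was *ERV1*, a sulfhydryl oxidase gene of mitochondria 6 measured genes away, which fell by 0.42 in *rna14-1* (limma adjusted p = 0.00150) and rose by 0.38 in *rna15-1* (limma adjusted p = 0.00370). Beside *GRE2*, *FRE7*, a ferric reductase gene, fell by 1.02 ± 0.13 in *rna14-1* (SE, limma adjusted p = 4.04e-05) and fell by 1.58 ± 0.13 in *rna15-1* (SE, limma adjusted p = 2.49e-06). *DCP1*, a decapping gene on the other side of *GRE2*, gave 0.16 in *rna14-1* and 0.21 in *rna15-1*, and neither passed. Beside *RSB1*, *RAT1*, which codes for the nuclear exonuclease that acts in transcription termination, fell in both mutants (−0.55 in *rna14-1*, −0.53 in *rna15-1*), and *ETT1* fell in both mutants (−1.07 in *rna14-1*, −1.33 in *rna15-1*) (limma adjusted p at most 1.37e-04). Beside *YGR035C*, the ribosomal protein gene *RPL26B* fell by 0.32 in *rna14-1* (limma adjusted p = 0.00153) and gave −0.11 in *rna15-1* (limma adjusted p = 0.174). On the other side *YGR035W-A*, on the opposite strand, rose by 0.94 ± 0.27 in *rna15-1* (SE, limma adjusted p = 0.00956), with 0.72 in *rna14-1* (limma adjusted p = 0.0303).

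Neighbours of the other *AAD* genes moved in both directions. *YDL241W* by *AAD4* fell in both mutants (−1.35 in *rna14-1*, −2.77 in *rna15-1*), and *THI13*, a thiamine synthesis gene with a shared probe set on its other side, rose by 2.56 in *rna14-1* cells and 2.36 in *rna15-1* cells. *RDS1* by *AAD3* rose in both mutants (0.79 in *rna14-1*, 1.03 in *rna15-1*), and these neighbours had a limma adjusted p of at most 1.69e-04. *YCR108C* on the other side of *AAD3* gave −0.10 in *rna14-1* (limma adjusted p = 0.641) and 0.18 in *rna15-1* (limma adjusted p = 0.416). *YJR154W* by *AAD10* fell in both mutants (−0.95 in *rna14-1*, −0.63 in *rna15-1*, limma adjusted p at most 0.00704). *RPD3*, a histone deacetylase gene by *AAD14*, rose by 0.64 in *rna15-1* (limma adjusted p = 6.44e-05), with 0.26 in *rna14-1* (limma adjusted p = 0.0165). Around *AAD3*, 9 genes were measured. The *rna14-1* counts were 6 rising and 0 falling, with a median of 1.53. The *rna15-1* counts were 2 rising and 1 falling, with a median of 0.18. Rising genes made up 32.8% of the genome in *rna14-1* and 28.2% in *rna15-1*, and falling genes 29.5% and 24.7%. Among the 226 genes near chromosome ends, the rising shares were 43.4% in *rna14-1* and 30.1% in *rna15-1*. *AAD3* itself rose in *rna15-1* and gave −0.15 in *rna14-1*.

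The pleiotropic drug resistance genes were examined since *RSB1* is one of their network. Of 18 listed besides the 8 genes, 17 were measured. In *rna14-1*, 4 rose (23.5%) and 5 fell (29.4%), with a median difference of −0.22, where 32.8% of all genes rose and 29.5% fell. In *rna15-1*, 6 rose (35.3%) and 3 fell (17.6%), with a median of 0.27, where 28.2% of all genes rose and 24.7% fell. Over all genes the medians were 0.00 in *rna14-1* and 0.03 in *rna15-1*. In *rna15-1* against *rna14-1*, 7 were higher (41.2%) and 2 lower (11.8%) at an adjusted p under 0.01, where 16.0% of all genes were higher and 16.5% lower.

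*PDR5*, the major multidrug pump, was the only one of the 17 with opposite directions that passed in both mutants, where 1.65% of all genes did. It gave 11.09, 11.15 and 10.90 in *rna14-1*, 13.50, 13.44 and 13.46 in *rna15-1*, against 13.14, 13.08, 13.15, 13.01 and 13.23 in wild type, with no overlap. It fell by 2.08 ± 0.07 in *rna14-1* (SE, limma adjusted p = 3.35e-08) and rose by 0.34 ± 0.07 in *rna15-1* (SE, limma adjusted p = 0.00197). *YOR1*, the oligomycin pump, fell by 2.26 ± 0.17 in *rna14-1* (SE, limma adjusted p = 7.43e-07), and its difference of 0.37 ± 0.17 in *rna15-1* (SE) did not pass (limma adjusted p = 0.0689).

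Other genes of the list rose in *rna15-1* and did not pass in *rna14-1*. *ICT1*, a lysophosphatidic acid acyltransferase gene, averaged 10.37 ± 0.05 in *rna14-1* and 12.67 ± 0.08 in *rna15-1* (SD, n = 3 each) and 10.59 ± 0.10 in wild type (SD, n = 5). It rose by 2.08 ± 0.07 in *rna15-1* (SE, limma adjusted p = 1.08e-08), against −0.22 in *rna14-1* (limma adjusted p = 0.0178). *PDR16*, a phosphatidylinositol transfer protein gene, rose by 1.25 ± 0.09 in *rna15-1* (SE, limma adjusted p = 1.14e-06), with −0.24 in *rna14-1* (limma adjusted p = 0.0352). *CIS1* rose by 1.76 ± 0.21 in *rna15-1* (SE, limma adjusted p = 3.59e-05), with 0.39 in *rna14-1* (limma adjusted p = 0.124).

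Other pumps took yet other directions. *SNQ2* fell in both mutants (−1.71 in *rna14-1*, −0.82 in *rna15-1*), and *PDR10* rose in both mutants (1.77 in *rna14-1*, 1.28 in *rna15-1*). *HXT11*, a hexose transporter gene, rose in both mutants (2.01 in *rna14-1*, 1.99 in *rna15-1*), and the limma adjusted p of these 3 genes was at most 7.69e-04. The *rna15-1* arrays of *HXT11* were spread, at 6.84, 7.28 and 8.73. *AZR1*, a transporter for azoles and acetic acid, fell in *rna15-1* (limma adjusted p = 4.75e-05). Its *rna15-1* arrays read 4.28 to 5.03, with 2 of 3 above background. Wild-type arrays 1 and 2 read 7.99 and 7.56, whereas wild-type arrays 3 to 5 read 9.84 to 10.07.

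**Figure D5:**
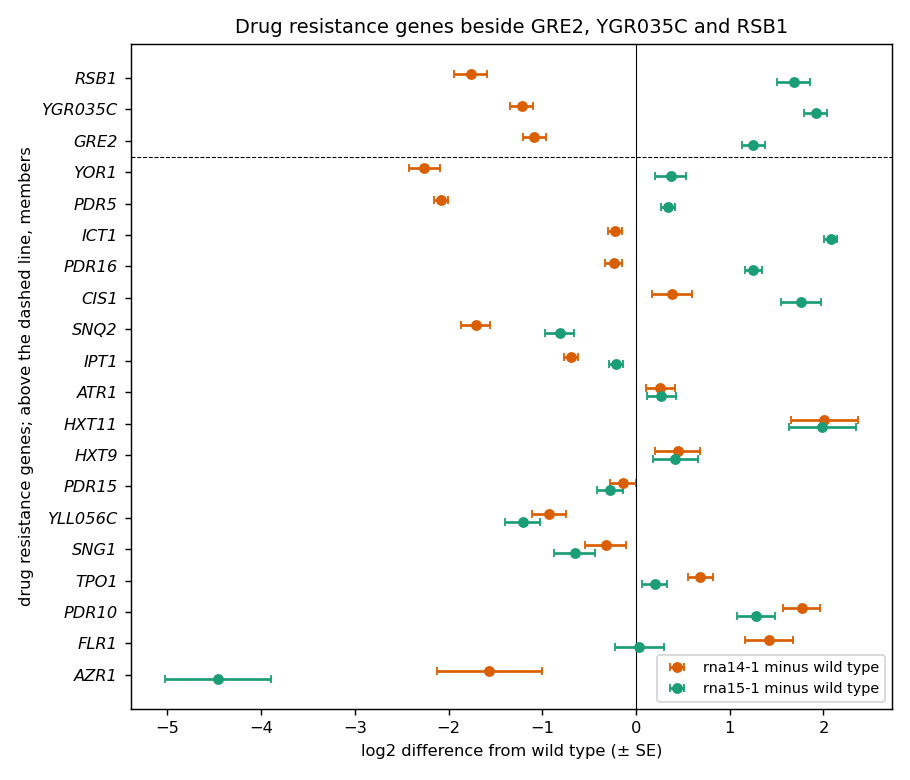
Log2 difference from wild type (horizontal axis, error bars ± SE) of *RSB1*, *YGR035C* and *GRE2* above the dashed line and 17 drug resistance genes below it, for *rna14-1* and *rna15-1*. *YOR1* and *PDR5* are under −2 in *rna14-1* and at 0.37 and 0.34 in *rna15-1*, and *SNQ2*, *PDR10* and *HXT11* lie on the same side of 0 in both mutants.

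Among 14 regulators of these genes and of the stress response, more fell than rose. In *rna14-1* 3 rose (21.4%) and 6 fell (42.9%), with a median of −0.30, against 32.8% and 29.5% of all genes. In *rna15-1* 0 rose by limma's adjusted p, with 2 higher at an unadjusted p under 0.05, and 6 fell (42.9%), with a median of −0.33, against 28.2% and 24.7% of all genes. *PDR3*, which codes for a zinc cluster activator of the drug resistance genes, fell by 1.85 ± 0.09 in *rna14-1* (SE, limma adjusted p = 8.18e-08) and fell by 0.99 ± 0.09 in *rna15-1* (SE, limma adjusted p = 5.94e-06). Its paralogue *PDR1* gave −0.01 in *rna14-1* (limma adjusted p = 0.952) and −0.27 in *rna15-1* (limma adjusted p = 0.0194). *YRR1*, another activator of the network, fell in both mutants (−0.97 in *rna14-1*, −1.58 in *rna15-1*), and *HOG1*, the osmotic stress kinase, fell in both mutants (−0.62 in *rna14-1*, −1.05 in *rna15-1*) (limma adjusted p at most 1.50e-04). *MSN4*, a general stress factor gene, rose by 1.08 in *rna14-1* (limma adjusted p = 1.06e-04), with 0.43 in *rna15-1* (limma adjusted p = 0.0340). None of the 14 passed in opposite directions, where 1.65% of all genes did.

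Among 16 other carbonyl and enone reductases, 8 rose and 2 fell (12.5%) in *rna14-1* with a median of 0.34, compared with 32.8% and 29.5% of all genes. In *rna15-1* 4 rose and 4 fell (25.0% each) with a median of 0.03, close to the shares of all genes, 28.2% and 24.7%. *YDL124W*, an α-keto amide reductase gene of the aldo-keto reductase superfamily, had the directions of *AAD6*. It rose by 0.89 ± 0.18 in *rna14-1* (SE, limma adjusted p = 0.00108) and fell by 1.65 ± 0.18 in *rna15-1* (SE, limma adjusted p = 1.74e-05). *OYE2*, an enone reductase known as old yellow enzyme, rose by 0.45 ± 0.05 in *rna14-1* (SE, limma adjusted p = 2.47e-05) and fell by 0.33 ± 0.05 in *rna15-1* (SE, limma adjusted p = 3.62e-04). Its paralogue *OYE3* rose in both mutants (2.45 in *rna14-1*, 1.54 in *rna15-1*).

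*GCY1*, a glycerol dehydrogenase gene, rose in both mutants (1.31 in *rna14-1*, 2.00 in *rna15-1*). *ADH7*, a cinnamyl alcohol dehydrogenase gene that lies near *AAD3*, rose in both mutants (2.04 in *rna14-1*, 1.07 in *rna15-1*), and *YGL039W*, a relative of *GRE2*, fell in both mutants (−1.33 in *rna14-1*, −0.48 in *rna15-1*) (limma adjusted p at most 0.00145). Of these 16, only *YDL124W* and *OYE2* passed in opposite directions, and none had the directions of *GRE2*. Of all 5449 genes, 90 (1.65%) passed in opposite directions, 48 of them with those of *GRE2*.

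The Ehrlich pathway breaks amino acids down to fusel alcohols, and Gre2 reduces one of its aldehydes. Of its 11 genes, 4 rose (36.4%) and 1 fell (9.09%) in *rna14-1* with a median of 0.06, where the shares of all genes were 32.8% and 29.5%. In *rna15-1* 2 rose (18.2%) and 1 fell (9.09%) with a median of 0.16, where those shares were 28.2% and 24.7%. The decarboxylase gene *ARO10* rose by 2.39 ± 0.22 in *rna14-1* (SE, limma adjusted p = 3.67e-06), with −0.06 in *rna15-1* (limma adjusted p = 0.832), and the transaminase gene *ARO9* rose by 1.57 in *rna14-1* (limma adjusted p = 1.22e-06), with 0.30 in *rna15-1* (limma adjusted p = 0.0544). *PDC5*, a pyruvate decarboxylase gene, rose by 1.07 in *rna14-1* (limma adjusted p = 1.89e-05), with 0.16 in *rna15-1* (limma adjusted p = 0.286). *ADH5*, an alcohol dehydrogenase gene, rose by 0.81 in *rna15-1* (limma adjusted p = 4.89e-05), with −0.15 in *rna14-1* (limma adjusted p = 0.221). *BAT2* fell in both mutants (−0.99 in *rna14-1*, −1.54 in *rna15-1*), and *SFA1* rose in both mutants (0.59 in *rna14-1*, 0.42 in *rna15-1*), with limma adjusted p at most 0.00196 for both genes.

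In the Yap1 regulon of the oxidative stress response more genes rose than fell in either mutant. Of 19, the genes that rose numbered 11 (57.9%) in *rna14-1* with a median of 0.57 and 10 (52.6%) in *rna15-1* with a median of 0.50, and 2 (10.5%) fell in each. Of all genes, 32.8% rose and 29.5% fell in *rna14-1*, with 28.2% and 24.7% in *rna15-1*. The list shares *OYE3* with the reductases, and *FLR1* and *ATR1* with the drug resistance genes. The sulfiredoxin gene *SRX1* rose in both mutants (3.16 in *rna14-1*, 2.23 in *rna15-1*), *YML131W* by 2.21 in *rna14-1* and by 1.12 in *rna15-1*, and the peroxidase gene *GPX2* by 0.57 in *rna14-1* and by 1.88 in *rna15-1* (limma adjusted p at most 2.99e-04). *FRM2*, a nitroreductase-like gene, rose by 1.66 in *rna15-1* (limma adjusted p = 4.57e-04), with 0.71 in *rna14-1* (limma adjusted p = 0.0444).

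Of 16 other genes of sphingoid base metabolism, none had the directions of *RSB1* with a pass in both mutants. Only 48 of all 5449 genes had them, so that none among 16 says little about these genes. In *rna14-1* 5 rose (31.2%) and 6 fell (37.5%), with a median of −0.17, near the 32.8% and 29.5% of all genes. In *rna15-1* 3 rose (18.8%) and 7 fell (43.8%), with a median of −0.16, against 28.2% and 24.7% of all genes. The ceramide synthase gene *LAC1* fell in both mutants (−1.57 in *rna14-1*, −1.31 in *rna15-1*), and *LCB1*, a subunit of serine palmitoyltransferase, fell in both mutants (−0.48 in *rna14-1*, −0.70 in *rna15-1*) (limma adjusted p at most 2.37e-04). *HFD1*, the fatty aldehyde dehydrogenase gene of sphingolipid breakdown, rose in both mutants (1.20 in *rna14-1*, 0.59 in *rna15-1*), and the phosphatase gene *YSR3* by 1.00 in *rna14-1* and by 0.65 in *rna15-1* (limma adjusted p at most 8.80e-04). *LCB5*, a sphingoid base kinase gene, rose by 1.05 in *rna14-1* (limma adjusted p = 3.61e-06), with −0.25 in *rna15-1* (limma adjusted p = 0.0410). Its paralogue *LCB4* rose by 0.52 in *rna14-1* and fell by 0.37 in *rna15-1* (limma adjusted p at most 0.00113), opposite to *RSB1* in both mutants.

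The RTA1-like relatives of *RSB1* number 3. *RTA1* fell by 1.02 in *rna14-1* and fell by 1.00 in *rna15-1*, and *PUG1*, a heme and protoporphyrin transporter gene, rose by 1.86 in both mutants (limma adjusted p at most 7.79e-06). *YLR046C* fell by 1.68 in *rna15-1* (limma adjusted p = 1.32e-05), with 0.07 in *rna14-1* (limma adjusted p = 0.747).

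Likeness of pattern was measured as Pearson's r over the 11 arrays against 5211 genes with an average log2 intensity over 7. The points share arrays and fall into 3 strains, so that r mostly reflects the strain means, and it is given as a description. Closest to *GRE2* were *PRD1*, a peptidase gene (0.985), *RSB1* (0.983) and *YDR222W* (0.982). Closest to *RSB1* were *GRE2* (0.983), the Mediator subunit gene *SRB7* (0.982) and *YGR035C* (0.978), and closest to *YGR035C* were *YDR222W* (0.987), *POF1* (0.982) and *GRE2* (0.979). For *AAD6* they were the kinase gene *PSK2* (0.994), the arrestin gene *ALY1* (0.990) and the shared probe set of *AAD4* (0.987). *AAD6* ranked last of the 5211 genes in likeness to *YGR035C*, at −0.990. The 4 genes chosen by direction were picked for their strain differences on these same arrays. Their r to each other largely follows from that choice. *AAD10* and *AAD14* had an r of 0.92 to each other and between −0.57 and 0.55 to the 4 genes chosen by direction.

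Array 3 of *rna15-1* differed from the mean of the other *rna15-1* arrays by −0.25 for *GRE2*, by −0.16 for *YGR035C* and by 0.01 for *RSB1*. For *AAD6* it was the 1 array above background, so that without it both remaining *rna15-1* arrays give only a bound. Without it, 10 genes in place of 4 were called in opposite directions. These were the same 4 with *BTN2*, *HPF1*, *HUG1*, *PCL1*, *YCL049C* and *YHP1*.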

How the data were processed

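Total RNA of the 11 cultures was hybridised to Affymetrix yeast arrays. The deposited values are log2 intensities that the authors obtained by robust multiarray averaging over all arrays, after GCOS. Versions are not given in the sources used here. They were used without further normalisation. The platform's annotation gives 1 gene name for 7244 of the 10928 probe sets, several for 1 and none for 3683. A total of 5498 matched *S. cerevisiae* genes of the RefSeq R64 table and were tested as 5449 genes, with the brightest probe set for the 47 genes that have several. Background was the 95th percentile of 1746 probe sets for other genomes. A member not above background on every array of a group has a bound only, with dim arrays set to the higher of signal and background. The number of arrays limits the precision.

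Groups were taken from the labels. The methods speak of triplicates, whereas 5 wild-type arrays are labelled and were all used, and they name YEPD medium where the labels name YPAD. All 11 arrays were fitted in R 4.3.3 with limma 3.58.1 (lmFit and eBayes, 1 coefficient per strain), and p-values were Benjamini-Hochberg adjusted over all 5449 genes. Rose and fell mean an adjusted p under 0.01, and called means the methods' thresholds. The p-values measure the spread between the labelled biological replicates. The fit was tested on simulated data. The 8 genes and the gene lists were chosen with earlier results of these data known. Besides the 8 genes, the text names the up to 3 genes of each list with the largest difference per mutant at an adjusted p under 0.01, the 3 most alike and the nearest neighbours of the genes, and the 4 genes with the largest opposite differences among those not called. *PDR16*, *CIS1*, *SNQ2*, *PDR10*, *PDR1*, *OYE2*, *LCB4*, *ERV1*, *HUG1*, *BTN2*, the other genes called without array 3 of *rna15-1* and the stretch beside *AAD6* were named after their values were seen. The RefSeq table served for names and gene order, and promoter and protein sequences were not analysed here. Alternatives covered the wild-type arrays used, normalisation, filters, probe sets, the moderation, the fitted groups, a replicate block and each array left out. Python 3.11.15 and matplotlib 3.10.9 drew the figures.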

Additional observations from a re-analysis of the deposited data

Results flagged for a closer look

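In 6 of the 8 genes the mutants differed from each other. Of these, 4 were chosen for opposite directions, and *AAD3* and *AAD4* passed with 1 shared probe set only. Of all genes, 16.0% were higher and 16.5% lower in *rna15-1* than in *rna14-1* at an adjusted p under 0.01. For *AAD6*, *GRE2*, *YGR035C* and *RSB1*, every array of one mutant lay above and every array of the other below all wild-type arrays. The difference of *rna15-1* from *rna14-1* was −5.45 for *AAD6*, 2.34 for *GRE2*, 3.14 for *YGR035C* and 3.45 for *RSB1*. That of *AAD6* is known only as a bound, at least 41.5-fold lower, since 2 of its *rna15-1* arrays were not above background. No test is given for these differences, since each mutant's difference from wild type chose the genes and uses the same mutant arrays. For *AAD3* the shared probe set differed by 1.31 between *rna15-1* and *rna14-1* (limma adjusted p = 4.84e-05), with the 3 *rna15-1* arrays above the 3 *rna14-1* arrays. For *AAD4* the shared probe set, which may also read *AAD6*, differed by −2.15 (limma adjusted p = 9.86e-08). Its 3 *rna15-1* arrays were below the 3 *rna14-1* arrays. Of all genes, 29.5% had every *rna15-1* array above every *rna14-1* array, and 29.1% had every one below. No wild-type array of any of the 11 probe sets was an outlier by Dixon's test at 95%, and groups of 3 arrays were not examined.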

How the results depend on the processing

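*GRE2*, *YGR035C* and *RSB1* were called in opposite directions under all 21 alternatives and *AAD6* under 20, the exception being the fit of only the groups compared, where 3 genes were called. There *AAD6* kept its differences of 1.94 in *rna14-1* and −3.52 in *rna15-1*, but its mean log2 intensity over the 8 arrays of *rna15-1* and wild type was 6.60, under the threshold of 7, and 90 genes, in place of 157, were called lower in *rna15-1* against *rna14-1*. Without the filters on average intensity and B, 8 genes were opposite, and 171 were called higher, in place of 110, and 305 lower in *rna15-1* against *rna14-1*. Leaving out 1 array at a time gave 4 to 10 opposite genes, and 84 to 219 higher and 106 to 293 lower in *rna15-1* against *rna14-1*, the highest of each without array 3 of *rna15-1*. *AAD4* in *rna15-1* turned to 0.19 (limma adjusted p = 0.488) with its unshared probe set, an alternative chosen after seeing the data. In *rna15-1* against *rna14-1*, *AAD3* no longer passed with its other probe sets (0.54, limma adjusted p = 0.0166, and 0.42, limma adjusted p = 0.0910), nor did *AAD4* with its unshared one (−0.32, limma adjusted p = 0.333). The cause was not tested. Values of *AAD14* in *rna14-1* spanned 0.04 to 0.33 and passed with wild-type arrays 3 to 5 alone (limma adjusted p = 0.00793) and without array 3 of *rna15-1* (limma adjusted p = 0.00959). After quantile normalisation, *RSB1* differed by −2.09 in *rna14-1*. The replicate numbers share no stated origin, and same-numbered arrays correlated in their deviations from the strain means by −0.16 to 0.34. With a replicate block, 4 genes were opposite, 420 were called higher and 306 lower in *rna14-1*, 277 higher and 208 lower in *rna15-1*, and 79 higher and 109 lower in *rna15-1* against *rna14-1*, and no tested call of the 4 *AAD* genes changed. Intensities near background, as for *AAD6* in *rna15-1*, give only bounds.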
